A study of Mus musculus with 13 samples.

Results

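The 9 genes described here are marks of microglia at rest: P2ry12, P2ry13, Tmem119, Cx3cr1, Csf1r, Aif1, Sall1, Siglech and Gpr34. They were taken by name from the 48795 genes of the count table, and all 9 passed the filter on low counts in every comparison. Their RNA was measured by sequencing of the right brain hemisphere, without olfactory bulb and cerebellum, of 13 mice at postnatal day 11. The 5 control mice had the genotype NexCre -/- YAP5SAnls +/-, the 5 nlsYAP5SA mice had NexCre +/- YAP5SAnls +/-, and the 3 C57BL/6 mice were WT; all 3 groups were on the C57BL/6J background. The Cre of the NexCre allele is active in neuronal precursors of the NEX/NeuroD6 lineage, to which microglia do not belong. The transgene, which encodes a phosphomutant YAP1 with a nuclear localisation signal, was thus carried by control and nlsYAP5SA mice alike and could be switched on in the latter. Control and nlsYAP5SA mice were littermates from different matings, and as the labels do not assign mice to litters, litter was not modelled.

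Microglia are the resident macrophages of the brain parenchyma. They arise in the yolk sac and depend for survival on the receptor CSF1R, which is bound by the cytokines CSF1 and IL34. CX3CR1 binds fractalkine, the product of Cx3cl1 in neurons, and P2RY12 and P2RY13 bind extracellular ADP, towards which microglial processes extend. TGF-beta maintains the resting programme, of which the transcription factor SALL1 is a part, and the resting genes P2ry12, Tmem119 and Cx3cr1 are known to fall when microglia become activated. In a bulk hemisphere sample, fewer cells of a type and less RNA per cell cannot be told apart, and the libraries do not show which cells a transcript came from.

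Libraries held between 20871566 and 25524349 estimated counts, and levels are given as CPM, the counts scaled to a common library total with TMM factors. The NexCre allele carries Cre at the Neurod6 locus, and of the 3 groups nlsYAP5SA mice alone have it. Neurod6 fell in these mice, to 49.2 ± 7.16 CPM against 97.2 ± 7.61 CPM among controls (SD, n = 5 per group, log2 fold change -0.98, edgeR adjusted p = 2.65e-05), and the altered allele and fewer cells of the lineage cannot be told apart in this value. Yap1 was at 20.0 to 22.3 CPM in controls and 22.6 to 26.6 CPM in nlsYAP5SA mice (log2 fold change 0.23, edgeR adjusted p = 0.0361), and whether reads of the transgene are counted there is not given in the sources used here. The summed level of 4 Y-linked genes (Ddx3y, Eif2s3y, Kdm5d and Uty) was 91.0 to 129 CPM in all 5 controls, but at most 0.0942 CPM in nlsYAP5SA replicates 1, 2 and 5 and 0 in C57BL/6 replicate 2. Mice without Y-linked reads were thus absent from the controls, and the 2 nlsYAP5SA and 5 control mice with Y-linked reads were also compared alone. Ttr, a gene of the choroid plexus, ranged from 0.822 to 217 CPM among controls and from 0.783 to 276 CPM among nlsYAP5SA mice.

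Divided by exonic length, which makes levels comparable between genes, the members differed widely in controls. P2ry12 was highest, at 24.8 ± 3.72 CPM per kb (SD, n = 5), and its lowest control lay above the highest control of every other member. Csf1r followed at 13.9 ± 1.8 CPM per kb and Cx3cr1 at 12.6 ± 1.51 CPM per kb, and the ranges of this pair overlapped. Gpr34 at 7.16 ± 0.916, Tmem119 at 6.60 ± 0.675, P2ry13 at 6.02 ± 0.619 and Sall1 at 5.05 ± 0.624 CPM per kb formed a run in which each overlapped its neighbour. Siglech at 3.77 ± 0.305 CPM per kb was below all of these in every control, and Aif1 was lowest at 2.2 ± 0.223 CPM per kb. In nlsYAP5SA mice P2ry12 was at 26.0 ± 3.58 CPM per kb and Csf1r at 23.5 ± 2.58 CPM per kb, with overlapping ranges, so the clear lead that P2ry12 had in controls was no longer seen. The least abundant member, Aif1, had 71 to 171 counts per library.

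The comparison of nlsYAP5SA with control mice asked whether active YAP1 in the neuronal lineage was accompanied by a change in these microglial genes. Every member had the higher mean in nlsYAP5SA mice, but the increases were unequal. Csf1r, Cx3cr1, Aif1, Tmem119 and Sall1 rose, while P2ry12, P2ry13, Siglech and Gpr34 did not pass the test (edgeR's quasi-likelihood test, Benjamini-Hochberg adjusted p of 0.05 or less over all genes). These 5 of 9 stand beside 7.36% of the 16315 genes tested that were called higher and 3.44% called lower, or 10.8% in either direction. For Csf1r, Cx3cr1 and Aif1 every nlsYAP5SA mouse lay above every control, a separation that 6.5% of all genes showed upwards and 3.57% downwards. The median log2 fold change of the members was 0.36, against -0.01 over all genes tested.

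Csf1r, the receptor for CSF1 and IL34, was at 71.9, 68.3, 82.3, 94.7 and 82.9 CPM in control replicates 1 to 5 and at 136, 146, 113, 131 and 151 CPM in nlsYAP5SA replicates 1 to 5. The groups did not overlap, and the gap lay between control replicate 4 and nlsYAP5SA replicate 3. The level rose 1.69-fold (log2 fold change 0.76 ± 0.10 SE, edgeR adjusted p = 0.000248). The gene (ENSMUSG00000024621) lies on chromosome 18 at positions 61100598 to 61132149 (GRCm38, plus strand) and shares 873 exonic bases with Hmgxb3 on the opposite strand. The strand setting of the counting is not given in the sources used here, but Hmgxb3 itself was at 42.2 ± 2.02 CPM in controls and 41.4 ± 2.72 CPM in nlsYAP5SA mice (SD, n = 5 each).

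Cx3cr1, the fractalkine receptor, was at 49.0, 50.4, 59.0, 61.3 and 64.5 CPM in control replicates 1 to 5. In nlsYAP5SA replicates 1 to 5 it was at 85.3, 97.0, 75.4, 96.9 and 101 CPM, again without overlap. It rose 1.60-fold (log2 fold change 0.68 ± 0.09 SE, edgeR adjusted p = 0.000491). Cx3cr1 (ENSMUSG00000052336) spans chromosome 9 from 119901616 to 120069879 on the minus strand, and 78 of its exonic bases are shared with the antisense gene Gm33858. This annotated span also holds exons of other protein-coding genes (Csrnp1, Gorasp1, Xirp1, Ttc21a and Wdr48), which share no exonic bases with Cx3cr1. Aif1 (ENSMUSG00000024397), which encodes the actin-binding protein IBA1 used to stain microglia, was at 3.93, 3.09, 3.08, 3.40 and 3.35 CPM in controls and at 6.15, 5.23, 4.72, 7.44 and 6.74 CPM in nlsYAP5SA mice. It had the largest fold change of the 9, at 1.79-fold (log2 0.84 ± 0.14 SE, edgeR adjusted p = 0.00148), and it too showed no overlap. Csf1r, Cx3cr1 and Aif1 stayed called without any single mouse. In the 2 nlsYAP5SA and 5 control mice with Y-linked reads their log2 fold changes were 0.60, 0.59 and 0.84, with edgeR adjusted p = 0.0401, 0.0553 and 0.0634, so that only Csf1r remained past the threshold. The smaller number of mice and a difference tied to the Y-linked reads cannot be told apart here.

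The purinergic receptors differed from these. P2ry12 was at 51.4, 54.3, 67.6, 69.3 and 72.4 CPM in control replicates 1 to 5 and at 57.4, 70.4, 55.4, 74.6 and 73.3 CPM in nlsYAP5SA replicates 1 to 5. The ranges overlapped almost entirely, and the log2 fold change was 0.07 with a 95% interval from -0.17 to 0.31 (edgeR adjusted p = 0.749). P2ry13, whose product binds ADP as well, ranged from 13.5 to 16.6 CPM in controls and from 13.1 to 20.2 CPM in nlsYAP5SA mice, with a log2 fold change of 0.12 and an interval from -0.15 to 0.39 (edgeR adjusted p = 0.595). Both intervals end below the log2 fold changes of Csf1r, Cx3cr1 and Aif1. The pair are neighbours on the minus strand of chromosome 3, P2ry13 (ENSMUSG00000036362) at 59207892 to 59210882 and P2ry12 (ENSMUSG00000036353) at 59216272 to 59262871, inside Med12l on the opposite strand. Med12l was at 31.5 ± 7.63 CPM in controls and 34.6 ± 5.58 CPM in nlsYAP5SA mice (SD, n = 5 each). Gpr34 (ENSMUSG00000040229), a receptor for lysophosphatidylserine on chromosome X at 13632089 to 13640858 and inside Cask on the opposite strand, was at 12 to 16.9 CPM in controls and 15.0 to 21.9 CPM in nlsYAP5SA mice. Its log2 fold change of 0.36 ± 0.12 SE missed the threshold (edgeR adjusted p = 0.07), which it passed by DESeq2's Wald test (adjusted p = 0.0464) and without nlsYAP5SA replicate 3 (edgeR adjusted p = 0.0196).

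Tmem119 (ENSMUSG00000054675), a membrane protein of microglia encoded on chromosome 5 at 113793729 to 113800516, was at 13.5 to 17.4 CPM in controls and 16.7 to 22.4 CPM in nlsYAP5SA mice, so the groups overlapped. It rose 1.28-fold (log2 0.36 ± 0.10 SE, edgeR adjusted p = 0.0309). This call was lost without control replicate 1, 2 or 3 or nlsYAP5SA replicate 2, 4 or 5 (edgeR adjusted p between 0.0527 and 0.0862), and with the Y-linked level as a covariate, where the log2 fold change was 0.33 (edgeR adjusted p = 0.264). Sall1, the transcription factor that sets microglial identity, was at 23.0 to 31.3 CPM in controls and 28.4 to 37.2 CPM in nlsYAP5SA mice. It rose 1.25-fold (log2 0.32 ± 0.09 SE, edgeR adjusted p = 0.0492), at the threshold, and the call was lost in 14 of 20 alternatives, among them without control replicate 1, 2, 4 or 5 or nlsYAP5SA replicate 1, 2, 4 or 5 (edgeR adjusted p between 0.0682 and 0.127). The Sall1 gene (ENSMUSG00000031665), at 89027235 to 89044162 on chromosome 8, is also known from neural progenitor cells, whose part was not tested. Siglech (ENSMUSG00000051504), a sialic acid binding receptor on chromosome 7 at 55768178 to 55778925, ranged from 11.5 to 14.2 CPM in controls and from 12.5 to 14.8 CPM in nlsYAP5SA mice, a log2 fold change of 0.12 with an interval from -0.05 to 0.29 (edgeR adjusted p = 0.385).

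The mice were not equally high. Among nlsYAP5SA mice replicate 3 was the lowest for 8 of the 9 members, all but Siglech, and among controls replicate 1 was the lowest for 5 members and replicate 2 for 3. Without nlsYAP5SA replicate 3, 6 members and 1772 of all genes were called. Without control replicate 1 or 2, or nlsYAP5SA replicate 2, 4 or 5, 3 members were called: Csf1r, Cx3cr1 and Aif1. The latter fits called 1643, 1442, 1290, 1891 and 1210 of all genes, in that order.

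**Figure D1:**
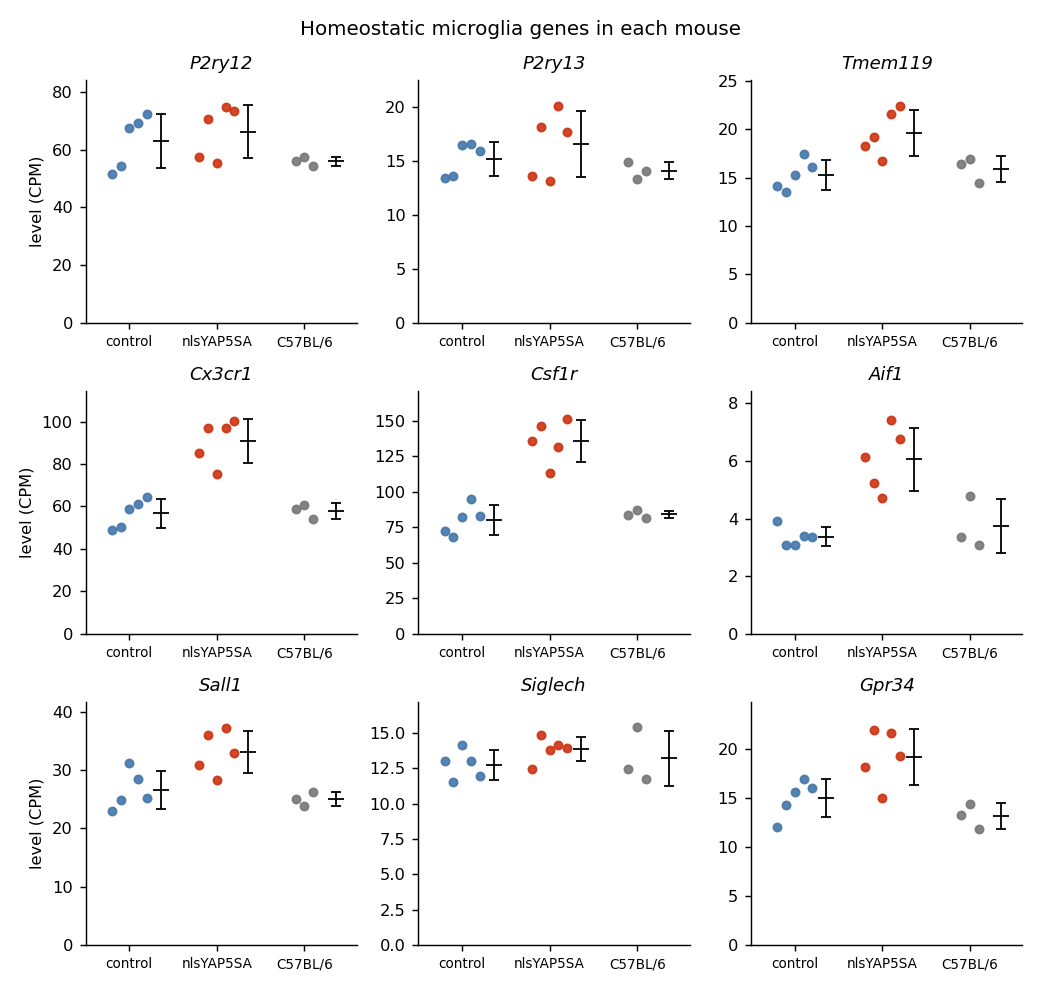
Level of each of the 9 homeostatic microglia genes in CPM (y axes, from 0, a scale of its own for each gene) in the 5 control, 5 nlsYAP5SA and 3 C57BL/6 mice (x axis); points are mice in the order of their replicate number, and the black marks show the mean and SD. Cx3cr1, Csf1r and Aif1 separate nlsYAP5SA mice from all controls, whereas the ranges of P2ry12, P2ry13 and Siglech overlap between the groups.

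To show what the upstream sequence of a member that rose and of a member that did not has in common, RefSeq promoter windows (GRCm38.p6) were searched for the 6-base core of the PU-box, GAGGAA, or TTCCTC on the other strand. The PU-box is the site bound by PU.1, the Spi1 product and a master regulator of macrophages. Windows of 250 bases before the RefSeq start were at hand for 6 members (8 windows), and the motif was in 2 of them, those of Aif1 and P2ry13, against 23.3% of all 32851 windows. The members thus held it about as often as promoters at large. Both windows are printed 5′ to 3′ on the minus strand with the motif in capitals: Aif1, which rose, at chr17:35176053-35176302, and P2ry13, which did not pass the test, at chr3:59210883-59211132.
Aif1: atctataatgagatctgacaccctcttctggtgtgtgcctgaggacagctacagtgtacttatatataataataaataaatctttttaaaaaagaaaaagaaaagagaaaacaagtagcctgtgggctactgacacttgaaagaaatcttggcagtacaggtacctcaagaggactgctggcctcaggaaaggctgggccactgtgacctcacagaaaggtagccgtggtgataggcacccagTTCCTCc
P2ry13: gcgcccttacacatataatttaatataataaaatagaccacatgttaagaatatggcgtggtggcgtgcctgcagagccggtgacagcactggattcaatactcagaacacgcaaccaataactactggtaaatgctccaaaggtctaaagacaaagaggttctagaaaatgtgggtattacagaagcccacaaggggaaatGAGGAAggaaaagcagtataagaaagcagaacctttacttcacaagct
The match in Aif1 lies at the very end of the window, within the last 16 bases, which GENCODE places inside the Aif1 gene, and that in P2ry13 lies further upstream. Windows of Cx3cr1, P2ry12, Sall1 and Siglech held no match in these letters, which says nothing about whether PU.1 binds there.

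Ligands and signalling partners of the members were taken as a list of 11 genes, of which 6 rose, 1 fell and 4 did not pass the test. Csf1, a ligand of CSF1R, was at 10.6, 10.1, 12.9, 13.8 and 13.5 CPM in controls and at 34.3, 41.6, 27.1, 49.0 and 42.7 CPM in nlsYAP5SA mice. It rose 3.20-fold (log2 fold change 1.68 ± 0.15 SE, edgeR adjusted p = 1.71e-05), the largest change of the list, and kept a log2 fold change of 1.64 within the mice with Y-linked reads (edgeR adjusted p = 0.00375). The other ligand of the receptor went the opposite way. Il34, a product mainly of neurons, fell from 30.2 ± 1.78 to 23.1 ± 2.48 CPM (SD, n = 5 each; log2 fold change -0.39, edgeR adjusted p = 0.00635), with every nlsYAP5SA mouse below every control. Cx3cl1 was at 441 to 546 CPM in controls and 412 to 499 CPM in nlsYAP5SA mice, a log2 fold change of -0.11 with an interval from -0.25 to 0.04 (edgeR adjusted p = 0.359). Against the C57BL/6 mice, at 552 to 620 CPM, Cx3cl1 was lower in every nlsYAP5SA mouse (log2 fold change -0.33, edgeR adjusted p = 0.0391), as were 1077 of 16641 genes. The C57BL/6 mice also lay above every control, as they did for 323 of 16546 genes. That difference did not pass the test (log2 fold change of C57BL/6 over control 0.21, edgeR adjusted p = 0.9996).

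Tyrobp, the adaptor that carries signals of TREM2, rose 1.81-fold from 6.75 ± 1.02 to 12.3 ± 1.14 CPM (SD, n = 5 each; log2 fold change 0.86, edgeR adjusted p = 0.000369). Among the TGF-beta genes, the receptor Tgfbr2 rose by a log2 fold change of 0.66 (20.6 to 27.2 CPM in controls and 30.1 to 42.7 CPM in nlsYAP5SA mice, edgeR adjusted p = 0.00121). Tgfbr1 rose by 0.44 on the log2 scale (edgeR adjusted p = 0.0324) and Nrros, which presents latent TGF-beta on microglia, by 0.42 (edgeR adjusted p = 0.029). The ligand Tgfb1 (log2 fold change 0.22) and the signal transducer Smad3 (0.18) had edgeR adjusted p = 0.33 and 0.22. The enzymes that turn ATP stepwise into adenosine differed. Nt5e, the last step, rose 1.96-fold from 6.65 ± 0.476 to 13.1 ± 1.56 CPM (SD, n = 5 each; edgeR adjusted p = 4.57e-05), and Entpd1, the first, had a log2 fold change of 0.19 (edgeR adjusted p = 0.221). With the Y-linked covariate the log2 fold changes of Tgfbr1, Nrros and Il34 were 0.35, 0.35 and -0.35, and the calls were lost (edgeR adjusted p = 0.363, 0.306 and 0.116). In the mice with Y-linked reads alone these 3 calls were lost too, as was that of Tgfbr2 (log2 fold change 0.57, edgeR adjusted p = 0.0685). Tgfbr1 also lost its call without control replicate 4 or nlsYAP5SA replicate 2, 4 or 5 (edgeR adjusted p up to 0.0909), and Nrros without nlsYAP5SA replicate 1, 2 or 5 (edgeR adjusted p up to 0.0737).

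**Figure D2:**
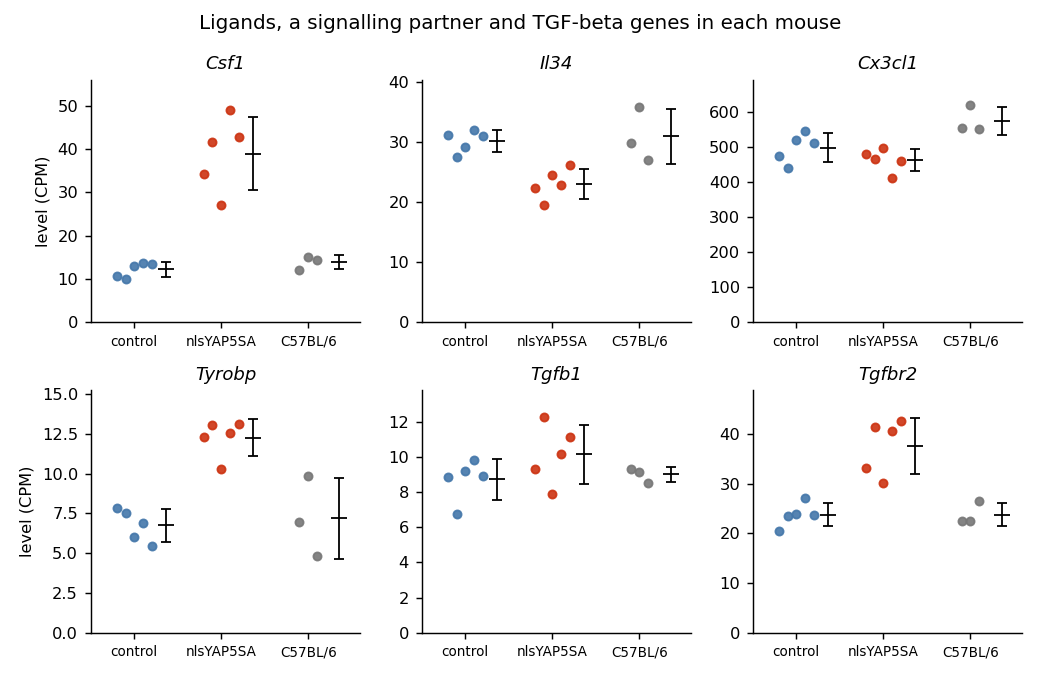
Level in CPM (y axes, from 0, a scale of its own for each gene) of the CSF1R ligands Csf1 and Il34, the CX3CR1 ligand Cx3cl1, the adaptor Tyrobp and the TGF-beta genes Tgfb1 and Tgfbr2 in control, nlsYAP5SA and C57BL/6 mice (x axis); points are mice and black marks the mean and SD. Csf1 lies at 27.1 to 49.0 CPM in nlsYAP5SA mice and at 10.1 to 13.8 CPM in controls, while Il34 is lower in every nlsYAP5SA mouse.

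Other lists of macrophage genes were set beside the members. Of 13 further genes listed as enriched in microglia, whose tie to the resting state was not tested, 8 rose and 5 did not pass the test, with a median log2 fold change of 0.53. Those 5 were Fcrls, Olfml3, Slc2a5, Adora3 and Ltc4s, and Slc2a5 had the lower mean in nlsYAP5SA mice (log2 fold change -0.24). The transcription factor Irf8 rose most, by 1.20 on the log2 scale (edgeR adjusted p = 4.78e-05), followed by the lipid receptor Trem2 with 1.06 (edgeR adjusted p = 2.43e-05) and the phagocytic receptor Mertk with 0.90 (edgeR adjusted p = 0.0186, and 0.0503 to 0.0538 without control replicate 2 or nlsYAP5SA replicate 2 or 5). With the Y-linked covariate Mertk was at 0.54 on the log2 scale (edgeR adjusted p = 0.383), and it also lost its call with the Ttr covariate or the replicate block (edgeR adjusted p = 0.0852 and 0.057). Of 12 leukocyte lineage genes, shared by microglia and other macrophages, 11 rose and Lcp1 did not pass the test, with a median of 0.95. Whether their levels also follow the state of the cells was not tested. Ptprc, the pan-leukocyte antigen CD45, had a log2 fold change of 1.36, Dock2 1.13 and Vav1 1.06 (edgeR adjusted p = 0.00328, 0.00102 and 0.000506). In the mice with Y-linked reads alone Vav1 stayed past the threshold, and Ptprc and Dock2 had log2 fold changes of 1.28 and 1.05 (edgeR adjusted p = 0.076 and 0.0602). Of 17 genes of activated microglia 13 could be tested, of which 10 rose and Lpl fell. The largest were Clec7a with 4.09, Spp1 with 3.08 and Lgals3 with 2.53 on the log2 scale (edgeR adjusted p = 0.000295, 9.12e-06 and 8.94e-05). Clec7a had 1 to 10 counts per library in controls and 37 to 148 in nlsYAP5SA mice, and did not pass the filter between C57BL/6 and control mice. It thus entered the test through the group where it was high, and its fold change rests on control levels near the floor.

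Genes of other myeloid cells were measured in the same libraries. Of 10 genes of border macrophages, which line vessels and meninges, Siglec1, Cd163 and F13a1 rose and 7 did not pass the test, with a median log2 fold change of 0.03. Their summed level was 34.3 to 51.3 CPM in controls and 40.7 to 62.1 CPM in nlsYAP5SA mice. Of 11 genes of blood leukocytes only Ccr2, a receptor of monocytes, passed the filter. It had 0 to 12 counts per library in controls and 6 to 93 in nlsYAP5SA mice, and did not pass between C57BL/6 and control mice. Ccr2 thus entered the test mainly through the group where it was high. Its mean was higher there by 2.90 on the log2 scale (edgeR adjusted p = 0.0376). This call was lost without control replicate 1, 3, 4 or 5 or nlsYAP5SA replicate 2 or 5 (edgeR adjusted p up to 0.0958). The log2 fold change of Ccr2 was 1.96 without nlsYAP5SA replicate 2 and 1.88 with the Y-linked covariate (edgeR adjusted p = 0.486). Cd163 lost its call without nlsYAP5SA replicate 2 or 5 (edgeR adjusted p = 0.0582 and 0.0566), and with the Y-linked covariate Cd163 and F13a1 were at 0.61 and 0.42 on the log2 scale (edgeR adjusted p = 0.424 and 0.396). Both lost their calls with the Ttr covariate as well (edgeR adjusted p = 0.0779 and 0.0722), F13a1 with the replicate block (edgeR adjusted p = 0.0575), and Siglec1 in the mice with Y-linked reads alone (edgeR adjusted p = 0.146). The summed level of these 11 genes was 0.378 to 1.06 CPM in controls and 1.43 to 5.37 CPM in nlsYAP5SA mice. In the controls Nkg7 was at 0 and 7 of the 11 genes had at most 3 counts in every library, as had 4 of the 11 in nlsYAP5SA mice. Leukocytes from blood express the lineage genes as well, and their part in the results was not tested.

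Markers of other brain cells were counted in the same way. Of 6 neuronal genes only Neurod6, the locus of the Cre allele, was called. Of 5 astrocyte genes Gja1 and Slc1a3 rose (log2 fold change 0.36 and 0.31, edgeR adjusted p = 0.0207 and 0.0231), and neither was called without control replicate 2 or nlsYAP5SA replicate 1, 2 or 5 (edgeR adjusted p up to 0.0694). With the Y-linked covariate they were at 0.20 and 0.22 on the log2 scale (edgeR adjusted p = 0.426 and 0.361), and neither was called with the Ttr covariate or the replicate block. Of 5 endothelial genes Cldn5 fell (-0.44, edgeR adjusted p = 0.000499), and of 4 choroid plexus genes Folr1 rose (2.2, edgeR adjusted p = 0.0133), with a median of 1.03 for the 4. Folr1 was not called with the Y-linked covariate (edgeR adjusted p = 0.147), and neither gene was in the mice with Y-linked reads alone (edgeR adjusted p = 0.0614 for Cldn5 and 0.32 for Folr1). Of 5 oligodendrocyte genes none was called by edgeR, 3 had an unadjusted p under 0.05, Mbp and Mog being lower (-0.49 and -0.75) and Pdgfra higher (0.20), and the median log2 fold change was -0.46.

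**Figure D3:**
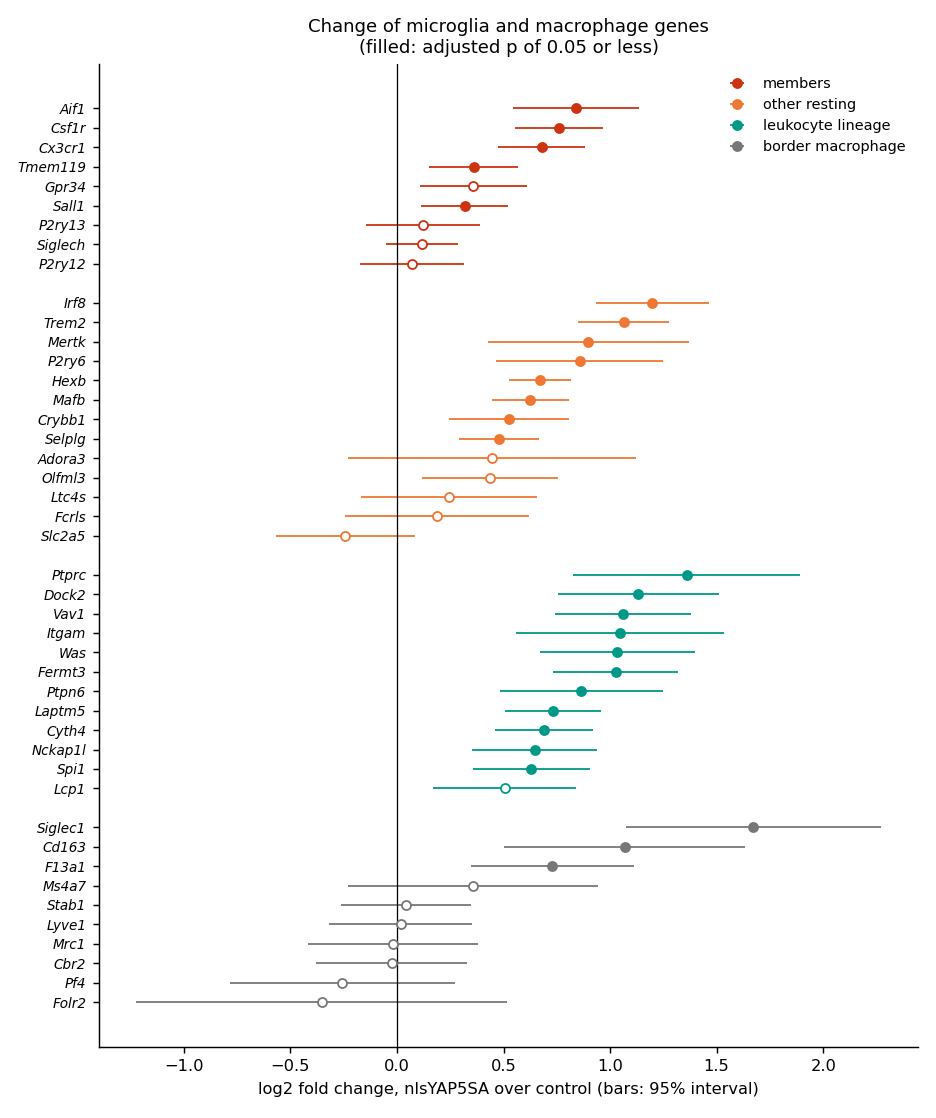
Log2 fold change of nlsYAP5SA over control mice (x axis, with the 95% interval as a bar) for the 9 members, 13 other genes listed as enriched in microglia (labelled other resting), 12 leukocyte lineage genes and 10 genes of border macrophages, ordered by fold change within each list (y axis). Filled points have an edgeR adjusted p of 0.05 or less. Members reach from 0.07 for P2ry12 to 0.84 for Aif1, and most lineage genes lie further right.

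Each member was also expressed relative to the summed level of the lineage genes in the same mouse. That sum was 105 to 125 CPM in controls, 114 to 122 CPM in C57BL/6 mice and 145 to 240 CPM in nlsYAP5SA mice. It was 0.78 higher on the log2 scale in nlsYAP5SA mice than in controls, and a gene that did not change at all is therefore lower on this scale. All nlsYAP5SA mice lay below all controls for 6 of the 9 members, next to 60.1% of all 16315 genes tested, whose median difference was -0.78. No member lay above all controls, next to 1.07% of all genes. The share of members that is lower is thus near that of all genes. The lineage genes were chosen with their increase known, so the ratios are given as a description, without a test.

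P2ry12 was at 46.1, 51.7, 54.0, 55.7 and 59.9% of the summed lineage level in control replicates 1 to 5 and at 31.5, 31.1, 38.1, 31.0 and 31.8% in nlsYAP5SA replicates 1 to 5. The mean log2 ratio was lower by 0.71 in nlsYAP5SA mice, somewhat less than the 0.78 by which the reference itself was higher. P2ry13 (12.1 to 13.4% in controls, 7.47 to 9.03% in nlsYAP5SA mice) and Siglech (9.88 to 11.7% and 5.90 to 9.51%) differed by -0.67 and -0.66, and Sall1, Gpr34 and Tmem119 by -0.46, -0.43 and -0.42. Nearest to the change of the lineage genes were Cx3cr1, Csf1r and Aif1, whose ratios differed by -0.10, -0.02 and 0.05 and overlapped between the groups. With the 17 activated genes as the reference, of whose sum Apoe, an abundant gene of astrocytes too, makes up 54.6 to 57.2% in controls and 49.9 to 59.8% in nlsYAP5SA mice, the differences of P2ry12, P2ry13 and Siglech were -0.27, -0.23 and -0.22. Apoe, Ctsb and Ctsd together were 80.6 to 87.2% of that sum, so this reference follows these 3 genes.

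**Figure D4:**
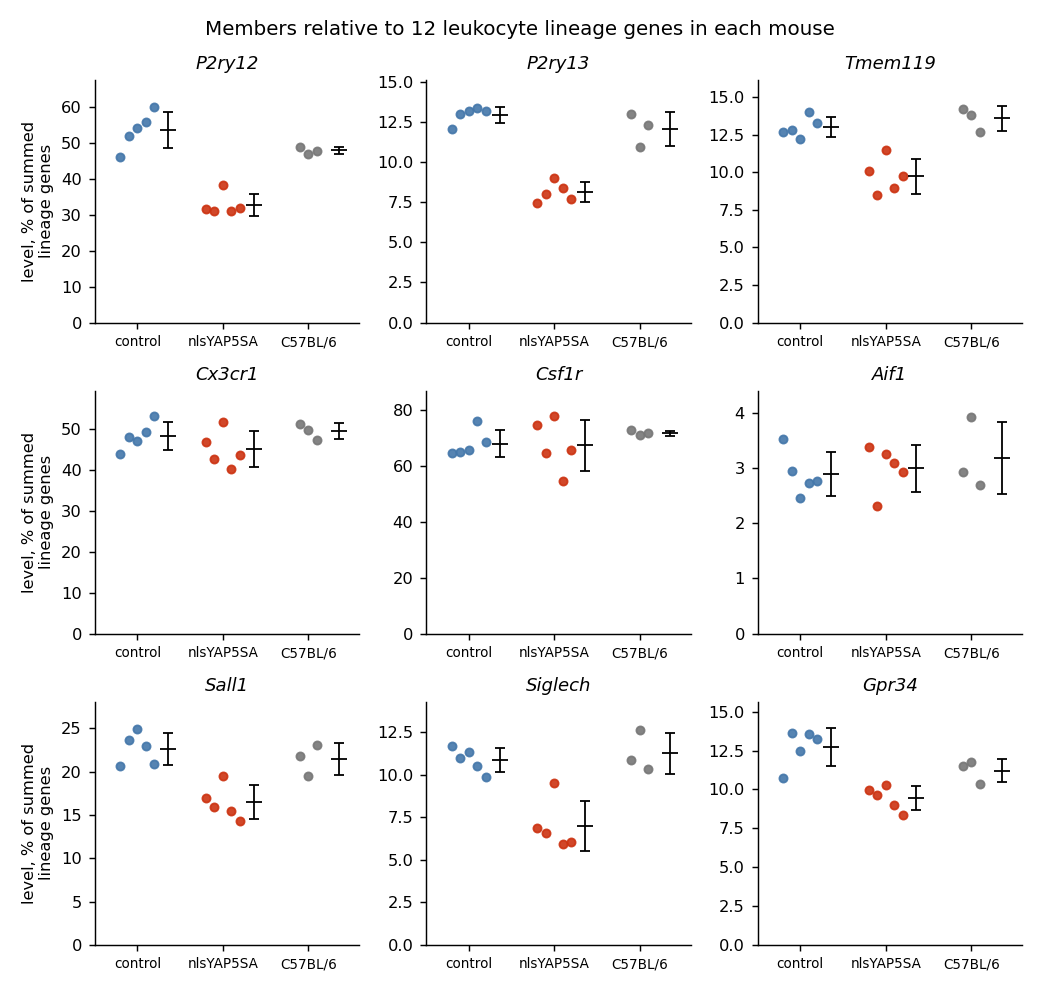
Level of each member as a percent of the summed CPM of 12 leukocyte lineage genes in the same mouse (y axes, from 0, a scale of its own for each gene) in control, nlsYAP5SA and C57BL/6 mice (x axis); points are mice and black marks the mean and SD. P2ry12 lies at 46.1 to 59.9% in controls and 31.0 to 38.1% in nlsYAP5SA mice, and Csf1r and Aif1 overlap between the groups.

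The C57BL/6 mice, which lack both alleles, served as a second reference. Against controls no member was called by edgeR, and none had an unadjusted p of 0.05 or less, nor was any called by DESeq2. Over all genes 0.169% of 16546 were called. The member log2 fold changes ran from -0.19 for Gpr34, with an interval from -0.46 to 0.09, to 0.15 for Aif1, with an interval from -0.23 to 0.52. P2ry12 was at 56.0, 57.5 and 54.4 CPM and Csf1r at 83.6, 86.8 and 81.6 CPM in C57BL/6 replicates 1 to 3, within the range of the controls, as were Cx3cr1, Tmem119 and Sall1. Of the other members, Aif1 was outside it in C57BL/6 replicate 2 (4.79 CPM) and replicate 3 (3.07 CPM), Siglech in replicate 2 (15.4 CPM), P2ry13 in replicate 2 (13.4 CPM) and Gpr34 in replicate 3 (11.8 CPM). Relative to the lineage genes P2ry12 was at 47.0 to 48.7% in C57BL/6 mice, also within the control range, which P2ry13 (10.9 to 13%), Sall1 (19.5 to 23.1%), Siglech (10.3 to 12.6%), Gpr34 (10.4 to 11.7%), Tmem119 (12.7 to 14.2%) and Aif1 (2.70 to 3.92%) left at 1 end.

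Against the C57BL/6 mice, nlsYAP5SA mice had the higher mean for all 9 members, and 4 were called higher, next to 4.16% of all genes. These were Csf1r (log2 fold change 0.68, edgeR adjusted p = 0.00341), Cx3cr1 (0.64, edgeR adjusted p = 0.00588), Gpr34 (0.53, edgeR adjusted p = 0.0437) and Sall1 (0.39, edgeR adjusted p = 0.0453). The same 4 did not overlap between the groups, as did 8.71% of all genes upwards. Aif1 overlapped, with C57BL/6 replicate 2 at 4.79 CPM, and its log2 fold change of 0.68 missed the threshold (edgeR adjusted p = 0.0746), which it passed by DESeq2 (adjusted p = 0.0253), with all 13 samples in a single edgeR fit (adjusted p = 0.0221) and without C57BL/6 replicate 2 (edgeR adjusted p = 0.0403). P2ry12 had a log2 fold change of 0.23 with an interval from -0.02 to 0.47 (edgeR adjusted p = 0.27). The nlsYAP5SA mice are the same in both comparisons, so the results are not independent. The calls of Gpr34 and Sall1 were lost with the Y-linked covariate (edgeR adjusted p = 0.0759 and 0.0754), with the Ttr covariate (edgeR adjusted p = 0.0545 for both) and without nlsYAP5SA replicate 1, 2, 4 or 5 or C57BL/6 replicate 1 or 2, that of Gpr34 also without C57BL/6 replicate 3 (edgeR adjusted p up to 0.145 in these fits), while Csf1r and Cx3cr1 kept theirs in these fits. With the replicate block none of the 4 was called, and Csf1r and Cx3cr1 had log2 fold changes of 0.63 and 0.55 (edgeR adjusted p = 0.117 and 0.12).

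The genes most like the members were sought over all 13 mice, by the Euclidean distance between a gene's standardised levels and the mean standardised profile of the members, among 14847 genes whose mean level reached 1 CPM. Nearest was Ctnna1, a catenin of cell junctions, at a distance of 1.13, and close to it were Col4a6, Axl, Bin2, Acta2, Tlr2 and Cmtm6 at 1.13 to 1.24. Axl, Bin2 and Tlr2 are known from myeloid cells, whereas Col4a6, a basement membrane collagen, and Acta2, smooth muscle actin, are not. The members themselves lay between 1.13 for Cx3cr1 and 2.84 for Siglech, so these genes lay about as near to the mean profile as the nearest members, which are themselves part of it. The profile is a description over mice that also differ by genotype.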

How the data were processed

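RNA of the right hemisphere was sequenced for 5 control, 5 nlsYAP5SA and 3 C57BL/6 mice, grouped by the labels. Per the labels and the methods, the authors used CutAdapt 1.5 for trimming and STAR for alignment to GRCm38, and deposited RSEM 1.3.0 expected counts per gene, not normalised, of which 12.4 to 13.3% per library are not whole. RSEM shares reads among near-identical genes. Of 48795 identifiers 48349 had a name. Expected counts were rounded, filtered with filterByExpr (minimum count 10, minimum total 15), scaled by TMM and tested with edgeR 4.0.16 (quasi-likelihood, two-sided) in R 4.3.3, with calls made where the p-value, adjusted over all genes by Benjamini-Hochberg, was at most 0.05. The test was tried on simulated counts. The log2 ratio of a member's CPM to the summed CPM of lineage genes is described only: an exact permutation test over mice was planned for it, but the reference was known to have risen. Positions and exonic lengths are from GENCODE M21. Totals were 20871566 to 25524349 per library, which are reads rather than molecules. Replicates were separate mice, and no pair of libraries within a group was a duplicate (lowest chi-square per degree of freedom 6.39).

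The members, lists and tests were chosen with earlier results of these data known. Named genes were all members and partners, up to 3 called genes of each other list with the largest change, and the 8 genes nearest in profile, of which 1 is not reported here. Hmgxb3, Med12l and Yap1 were added once results were known. Tried as alternatives were DESeq2 size factors, library size alone, no filter, at least 10 counts in every sample, DESeq2 1.42.0, a joint fit of all 13 samples, a replicate block, the Y-linked level or Ttr as a covariate, leaving out each mouse, and for the ratio other references or 0.5 CPM added. The fit on mice with Y-linked reads alone was added after the data were seen.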

Additional observations from a re-analysis of the deposited data

Results flagged for a closer look

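A single mouse stood apart from its group in 5 of 110 groups of 5 mice examined by Dixon's ratio, of which chance flags about 1 in 20. In nlsYAP5SA replicate 3, P2ry12 was at 38.1% and Siglech at 9.51% of the summed lineage level, the highest of their group, the other nlsYAP5SA mice lying at 31.0 to 31.8% and 5.90 to 6.85%. The same mouse had the lowest level of 8 members. Outside the members, Spp1 was at 6.26 CPM in control replicate 4, Mertk at 16.3 CPM in nlsYAP5SA replicate 4, and Ccr2 at 4.38 CPM in nlsYAP5SA replicate 2, which were respectively the highest, the lowest and the highest of their groups.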

How the results depend on the processing

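Csf1r, Cx3cr1 and Aif1 rose in nlsYAP5SA over control mice under every alternative planned, and P2ry12, P2ry13 and Siglech passed the threshold under none. Leaving out each mouse in turn gave 3 to 6 members and 1210 to 1891 genes called, next to 1761 genes in the main fit. The Y-linked covariate gave 3 members and 554 genes, and the mice with Y-linked reads alone, 2 against 5, gave 1 member and 334 genes. For the 37 named genes called in this comparison, 638 of 737 alternative fits kept the call and 99 lost it. For the 9 not called, 6 of 180 fits gained one, and no fit of the 46 changed direction. Replicate numbers did not pair the mice (correlation of same-numbered deviations across genes from -0.31 to 0.31 in nlsYAP5SA against control, -0.02 to 0.49 in C57BL/6 against control and -0.27 to 0.07 in nlsYAP5SA against C57BL/6, in none of them over 0.1 for every number). With the replicate block, 4 members and 1239 genes were called in nlsYAP5SA against control, Sall1 being lost (edgeR adjusted p = 0.0864).

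Against C57BL/6 mice 4 members and 1061 genes were called. DESeq2 called 5 members (1527 genes), as did all 13 samples in a single fit (1522 genes), Aif1 being gained in both. The replicate block gave 0 members and 47 genes, the Y-linked covariate 2 members and 815 genes, and the Ttr covariate 2 members and 1033 genes. Leaving out a mouse gave 2 to 4 members and 401 to 1757 genes. Siglech changed sign when a mouse was left out (log2 fold change from -0.0219 to 0.196). For C57BL/6 against control, 28 genes were called, and 16 with at least 10 counts in every sample, 59 by DESeq2, 44 with all 13 samples and 15 with the replicate block. Without a call in any fit, Cx3cr1, Aif1 and Siglech had log2 fold changes of -0.00083, -0.0586 and -0.0639 with the Y-linked covariate, and leaving out a mouse gave -0.0214 to 0.0762, -0.0687 to 0.255 and -0.0744 to 0.112.

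Relative to the activated genes in place of the lineage genes, the log2 differences were -0.27 for P2ry12, -0.23 for P2ry13, -0.22 for Siglech and -0.0227 for Sall1, and 0.0157 for Tmem119, 0.0134 for Gpr34, 0.34 for Cx3cr1, 0.42 for Csf1r and 0.49 for Aif1. With 0.5 CPM added, Aif1 was at -0.0349. The cause of these changes was not tested. When a mouse was left out, Cx3cr1 ranged from -0.155 to -0.0638, Csf1r from -0.075 to 0.0526 and Aif1 from -0.00613 to 0.139, while the other 6 members stayed lower.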
